A study of Mus musculus with 16 samples.

Results

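Livers of male mice collected 3 h after TCPOBOP were compared with livers of vehicle-treated males of the same experiment, using DNase-seq peak lists of 4 of the 16 pools in the series. The 4 pools were taken by their experiment code and treatment label, 2 pools per treatment, and their peaks were compared by presence and by signal at the summit. The whole series holds 4 such experiments, each with TCPOBOP and vehicle pools under a code of its own: males at 3 h, females at 3 h, males at 27 h and females at 27 h. All mice were of the CD-1 strain and were received at 7 weeks of age. The TCPOBOP males had 1 intraperitoneal injection of 3 mg/kg TCPOBOP, and the control males had vehicle alone, 1% DMSO in corn oil, which the TCPOBOP group received as well. Each pool combined DNA from 3 to 5 livers, so that variation between single mice was not measured and p-values reflect the spread between pools. Whole liver was used, and no part of a signal can be assigned to a cell type.

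TCPOBOP is a synthetic agonist of the constitutive androstane receptor (CAR, gene Nr1i3), a nuclear receptor of hepatocytes that moves to the nucleus when activated, binds DNA with its partner RXR and induces genes of drug and steroid metabolism, of which Cyp2b10 is the textbook target in mouse liver. DNase I cuts chromatin where nucleosomes have been displaced, as at promoters and enhancers bound by transcription factors. A peak of released fragments marks such an accessible site, and a change of its height after an agonist marks a change in accessibility, in the number of cells with the site open, or in both, which cannot be told apart in a pool. Positions are those of the mouse build mm9. Which genes lie at the regions below was not analysed here, since the gene table at hand is of another build.

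The 4 libraries held 15679689 (vehicle pool 1), 17206999 (vehicle pool 2), 25383943 (TCPOBOP pool 1) and 18543171 (TCPOBOP pool 2) tags, within the 15679689 to 43618254 of the series. TCPOBOP pool 1 was the deepest and also had the most peaks, 39192, against 32791 in TCPOBOP pool 2 and 31096 and 29216 in vehicle pools 1 and 2. Merging the overlapping autosomal peaks of the 16 lists gave 59896 regions, and 40071 of these had a peak in at least 1 of the 4 male 3 h pools and 22424 (56.0%) in all 4. Over those 22424 regions the log2 signal differed between the 2 TCPOBOP pools with an SD of 0.37, between the 2 vehicle pools with 0.39, and between a TCPOBOP and a vehicle pool with 0.39 to 0.43. Over these regions as a whole, pools of different treatments differed little more than pools of 1 treatment.

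Accessibility was higher 3 h after TCPOBOP at 129 of the 22424 regions (0.575% of those tested) and lower at 24 (0.107%). The measure was the summit pileup, a count of the extended tags that cover a peak's highest point, scaled to 1000000 tags and here called the scaled pileup. Its log2 values were centred on the median of each library and tested with limma, and a region was called at a Benjamini-Hochberg adjusted p below 0.05. The median rise among the higher regions was log2 1.00 (1.99-fold), with a range of 0.57 to 2.25, and 64 of the 129 rose at least 2-fold (log2 1 or more). The lower regions had a median change of log2 −0.84 and a range of −1.22 to −0.62, and 6 of them fell at least as far as log2 −1. The median change over all tested regions was log2 −0.03. Both TCPOBOP pools stood above both vehicle pools at every one of the 129 higher regions and below at every one of the 24 lower regions, while the same order was found up at 17.8% and down at 23.0% of all tested regions.

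Higher regions were 84.3% of the 153 regions called. Without centring the median change of all tested regions moved to log2 0.15, and the calls became 291 higher and 2 lower, 99.3% higher. The number of calls depended on single pools: without TCPOBOP pool 1, the deepest, 14 regions were higher and 2 lower, and without TCPOBOP pool 2 45 and 12. Without vehicle pool 1 they numbered 142 and 11, and without vehicle pool 2 77 and 6. With the spread taken from these 4 libraries alone, 19 were higher and 0 lower. At an unadjusted p below 0.05 there were 2962 regions in both directions together.

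**Figure D1:**
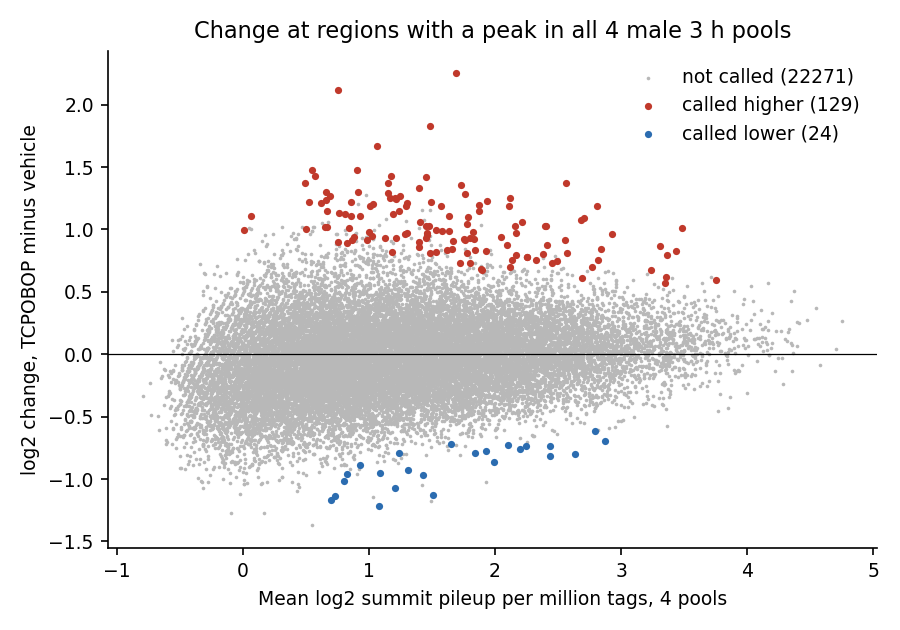
Each point is 1 of the 22424 regions with a peak in all 4 male 3 h pools. The horizontal axis is the mean log2 scaled pileup of the 4 pools and the vertical axis the log2 change, TCPOBOP minus vehicle. The 129 regions called higher (red) reach log2 2.25 and the 24 called lower (blue) reach −1.22.

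The 12 higher regions of lowest p, labelled H1 to H12 in that order, were the same 12 that were called without any 1 of the 4 pools. H1 (chromosome 7, 26672712 to 26673610) had the largest change. Its scaled pileup was 1.28 and 1.51 in vehicle pools 1 and 2 and 7.96 and 7.12 in TCPOBOP pools 1 and 2. The 4 values rested on 20, 26, 202 and 132 tags at the summit. The means were 1.39 ± 0.167 and 7.54 ± 0.593 (SD, n = 2 pools), a centred change of log2 2.25 ± 0.18 (SE; 4.76-fold; limma adjusted p = 5.72e-08). Both TCPOBOP pools lay far above both vehicle pools, and no pool's value approached the other group.

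H2 (chromosome 7, 26679889 to 26680779) was weakly accessible in vehicle, with scaled pileups of 0.829 and 0.697, and reached 3.86 and 3.67 after TCPOBOP. Its change was log2 2.12 ± 0.19 (SE, 2 pools in each group; adjusted p = 6.53e-07 by limma). The vehicle values were near the lowest pileup at which a peak was listed in those pools, 0.510 and 0.465, whereas both TCPOBOP values were several times that level. H3 (chromosome 18, 68650572 to 68651869) had 1.28 and 1.51 in vehicle and 6.19 and 5.12 after TCPOBOP, and rose by log2 1.83 ± 0.21 (adjusted p = 4.58e-05). Groups were again well apart at H3, where the TCPOBOP pools differed from each other more than the vehicle pools did.

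Some regions that were already strongly accessible in vehicle also rose. H4 (chromosome 8, 107255077 to 107256643) went from 4.66 and 4.07 to 12.6 and 10.1 (log2 1.19 ± 0.14, adjusted p = 4.58e-05). H12 (chromosome 8, 95721255 to 95722495) was the most accessible of the 12, with 7.53 and 7.21 in vehicle and 17.9 and 15.9 after TCPOBOP, and rose 2.01-fold (log2 1.01 ± 0.15, adjusted p = 0.000742). At both, the lower TCPOBOP pool exceeded the higher vehicle pool by more than the pools of either group differed.

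H5 and H6 followed by p. H5 (chromosome 10, 80421722 to 80422333) had scaled pileups of 1.98 and 1.92 in vehicle and 5.63 and 5.72 after TCPOBOP, with a change of log2 1.36 ± 0.16 (adjusted p = 4.58e-05). H6 (chromosome 6, 67099388 to 67100258) had 2.61 and 2.67 in vehicle and 7.80 and 6.58 after TCPOBOP (log2 1.25 ± 0.16, adjusted p = 0.000101). At H5 the pools of each group were almost equal, and at H6 TCPOBOP pool 1 was the higher of its pair. H7 to H11 rose by log2 1.19 to 1.67. H7 (chromosome 5, 136154385 to 136154891) went from 2.04 and 2.03 to 6.34 and 5.02, and H8 (chromosome 19, 32701131 to 32702390) from 2.36 and 2.32 to 6.38 and 6.15. H9 (chromosome 7, 6778640 to 6779486) went from 1.59 and 1.51 to 4.96 and 3.99. None of these groups overlapped. H10 (chromosome 12, 82030984 to 82031685) went from 2.42 and 2.96 to 6.62 and 7.33. H11 (chromosome 14, 40849370 to 40850069) had the most unequal vehicle pools, 1.59 and 0.756, against 4.14 and 3.83 after TCPOBOP (log2 1.67 ± 0.24, adjusted p = 0.000671). In scaled pileup before centring, TCPOBOP pool 1 was above TCPOBOP pool 2 at 10 of the 12 regions, all except H5 and H10. The library median removed by centring was also higher in TCPOBOP pool 1 (log2 1.48) than in TCPOBOP pool 2 (log2 1.31). This order is therefore not particular to these regions.

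**Figure D2:**
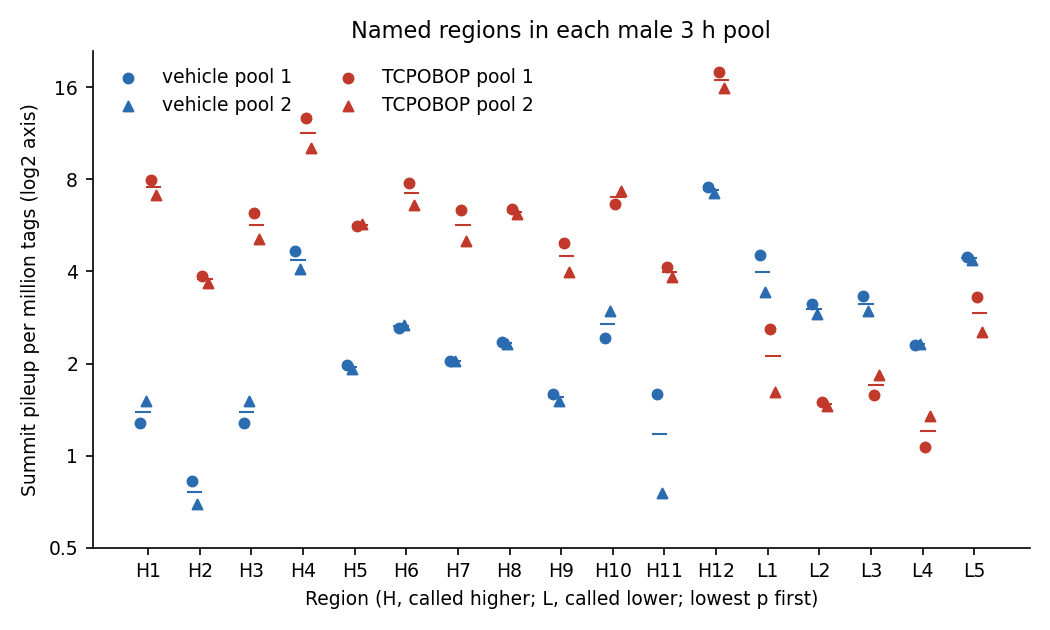
Scaled pileup (summit pileup per 1000000 tags, log2 axis) of the 12 higher regions H1 to H12 and the 5 lower regions L1 to L5 of lowest p. Points are the 4 male 3 h pools (circles pool 1, triangles pool 2) and short lines the mean of each group of 2; red and blue points do not overlap at any of the 17 regions.

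Regions that lost accessibility changed less, and their calls depended more on single pools. L1 (chromosome 17, 16997376 to 16998452) had scaled pileups of 4.53 and 3.43 in vehicle and 2.60 and 1.62 after TCPOBOP, a change of log2 −1.13 ± 0.19 (SE, 2 pools in each group; adjusted p = 0.00332 by limma). L2 (chromosome 16, 98072557 to 98073794) had 3.13 and 2.91 in vehicle and 1.5 and 1.46 after TCPOBOP (log2 −1.22 ± 0.21, adjusted p = 0.00332). In scaled pileup the groups did not overlap at either, though at L1 the pools of each group differed by about 1 unit. With the spread taken from these 4 libraries alone, neither L1 nor L2 was called (limma adjusted p = 0.111 and 0.0755).

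L3 (chromosome 14, 31814348 to 31815190) went from 3.32 and 2.96 to 1.58 and 1.83, and L4 (chromosome 19, 24551293 to 24552641) from 2.30 and 2.32 to 1.06 and 1.35. L5 (chromosome 12, 25370907 to 25371852) went from 4.46 and 4.36 to 3.31 and 2.53, with 70 and 75 summit tags in vehicle and 84 and 47 after TCPOBOP. At L5 the unscaled tags of the 2 groups therefore overlap, and the lower signal of TCPOBOP pool 1 appears after scaling to its depth. Unscaled tags overlap at L1 as well, with 71 and 59 in vehicle and 66 and 30 after TCPOBOP. L2 and L4 were not called without TCPOBOP pool 1 (adjusted p = 0.10 and 0.293), and L1 was not called without TCPOBOP pool 2 (adjusted p = 0.0844). L4 was also lost without vehicle pool 2 (adjusted p = 0.107), L3 was called without TCPOBOP pool 2 alone of the 4 pools, and L5 was not called without any 1 of the 4. Of all 24 lower regions, 0 were called in each of the 4 fits that left out a pool, against 12 of the 129 higher regions.

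Near the threshold, the last regions called were at chromosome 14, 69891341 to 69892204 (log2 0.89, adjusted p = 0.0499) and chromosome 15, 83362190 to 83362844 (log2 0.92, adjusted p = 0.04996). The first regions not called were at chromosome 7, 105495896 to 105496844 (log2 0.70, adjusted p = 0.0502) and chromosome 10, 76485060 to 76485888 (log2 0.97, adjusted p = 0.0514). All 4 had both TCPOBOP pools above both vehicle pools. The threshold separates regions of nearly equal adjusted p, and the largest change of the 4 was at the uncalled region on chromosome 10.

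Among the tested regions, the higher ones came from the whole range of vehicle signal. When the tested regions were ordered by vehicle signal and divided into 4 equal groups, these held 32, 36, 33 and 28 higher regions from the weakest to the strongest. The median rise was log2 1.20 in the weakest group and 0.81 in the strongest. Of the lower regions, 0 were in each of the 2 weaker groups, 10 in the third and 14 in the strongest. Median scaled vehicle pileup was 1.95 at the higher, 3.88 at the lower and 2.01 at all tested regions. A weak site that fell under the listing level in a TCPOBOP pool was not tested, since a peak in all 4 pools was required. Nor was a site that rose from under that level in a vehicle pool. The vehicle values that set the groups also enter the change. Where lower regions lie by prior accessibility, and how the size of a rise depends on it, therefore cannot be read from these values. Each of the 19 autosomes had at least 3 higher regions. Chromosomes 14 and 18 had the highest shares, 11 of 832 tested regions (1.32%) and 8 of 724 (1.10%).

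Peaks also grew in width where their summits rose. The peaks at the 129 higher regions had a median width of 603 bp after TCPOBOP and 464 bp after vehicle, and at 89 of them (69.0%) both TCPOBOP peaks were wider than both vehicle peaks, against 31.0% of all tested regions. A taller peak crosses the calling threshold over a longer stretch, so width is no independent measure. The summit stayed close to its place, with a median shift of 27 bp at the higher regions and 32.5 bp at all tested regions.

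The authors' fold enrichment, which sets each pileup against the local background of its own library, gave the same order of pools at most of these regions. The pileup by which the regions were called enters the fold, so fold is no independent measure either. It was higher in both TCPOBOP pools than in both vehicle pools at 121 of the 129 higher regions (93.8%; 32.9% of all tested) and lower in both at 24 of the 24 lower regions (8.64% of all tested). The 1 exception among the higher regions in which fold was lower in both TCPOBOP pools lay between H1 and H2, at chromosome 7, 26674300 to 26675132. There the scaled pileup rose from 1.28 and 1.39 to 4.06 and 3.40 (log2 1.29 ± 0.20, limma adjusted p = 0.00123), while the mean fold was 5.24 in vehicle and 4.0 after TCPOBOP. Per the file headers, the local background is taken over up to 10 kb around a peak, and H1 starts 1.59 kb before this region; their part in the lower fold was not tested.

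Changed regions lay near each other in places. Taking the 129 higher regions together with 61 strong gained regions described below, 41 of 190 (21.6%) had another within 50 kb. They formed 14 pairs and 4 clusters of 3 or more. How often other accessible regions lie this close was not counted, so these numbers do not show that changed regions cluster. The cluster on chromosome 7 was the most compact, with 4 regions in 10.2 kb (26672712 to 26682863). It holds H1, the region at 26674300, H2 and a peak that the male 3 h lists show after TCPOBOP alone. Every accessible region listed for the male 3 h pools in that interval had changed. Without TCPOBOP pool 1 the region at 26674300 did not pass the test (adjusted p = 0.0659).

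The cluster on chromosome 6 spans 48.0 kb (67052245 to 67100258) and ends in H6. At its first region (67052245 to 67053203) scaled pileup was 3.13 and 5.11 in vehicle and 8.43 and 8.79 after TCPOBOP (log2 0.92 ± 0.21, adjusted p = 0.0407). The region at 67095959 to 67096462 went from 1.40 and 1.34 to 3.66 and 2.48 (log2 0.95 ± 0.21, adjusted p = 0.0323). Groups were separate at both, but of the 4 fits that left out a pool the first was called only in that without vehicle pool 2, and the other in none (adjusted p = 0.0530 to 0.338). Between them, 67088159 to 67088988 rose by log2 0.75 ± 0.24 without passing the test (adjusted p = 0.167), and 67057591 to 67058685 had a peak in both TCPOBOP pools and neither vehicle pool.

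On chromosome 19, 3 higher regions lie within 18.4 kb, with H8 in the middle. The first, at 32694144 to 32697147, went from 1.59 and 1.45 to 4.65 and 3.34 (log2 1.19 ± 0.19, adjusted p = 0.00231), and the last, at 32711230 to 32712552, from 2.30 and 2.79 to 5.16 and 4.42 (log2 0.73 ± 0.17, adjusted p = 0.0431). Both groups were separate at each, yet the first was not called without TCPOBOP pool 1 (adjusted p = 0.125), and of the fits that left out a pool the last was called only in that without vehicle pool 2. A peak just beyond the end of H8, at 32702524 to 32703376, had 1.21 and 1.28 in vehicle and 2.21 and 1.62 after TCPOBOP (log2 0.41 ± 0.21, adjusted p = 0.408). The cluster on chromosome 5 spans 19.0 kb. Its regions at 30917825 to 30918395 (log2 1.01 ± 0.19, adjusted p = 0.0108) and 30930773 to 30931420 (log2 1.11 ± 0.26, adjusted p = 0.0471) were called with all pools, but of the fits that left out a pool the first was called only in that without vehicle pool 2, and the other in none (adjusted p = 0.117 to 0.319).

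**Figure D3:**
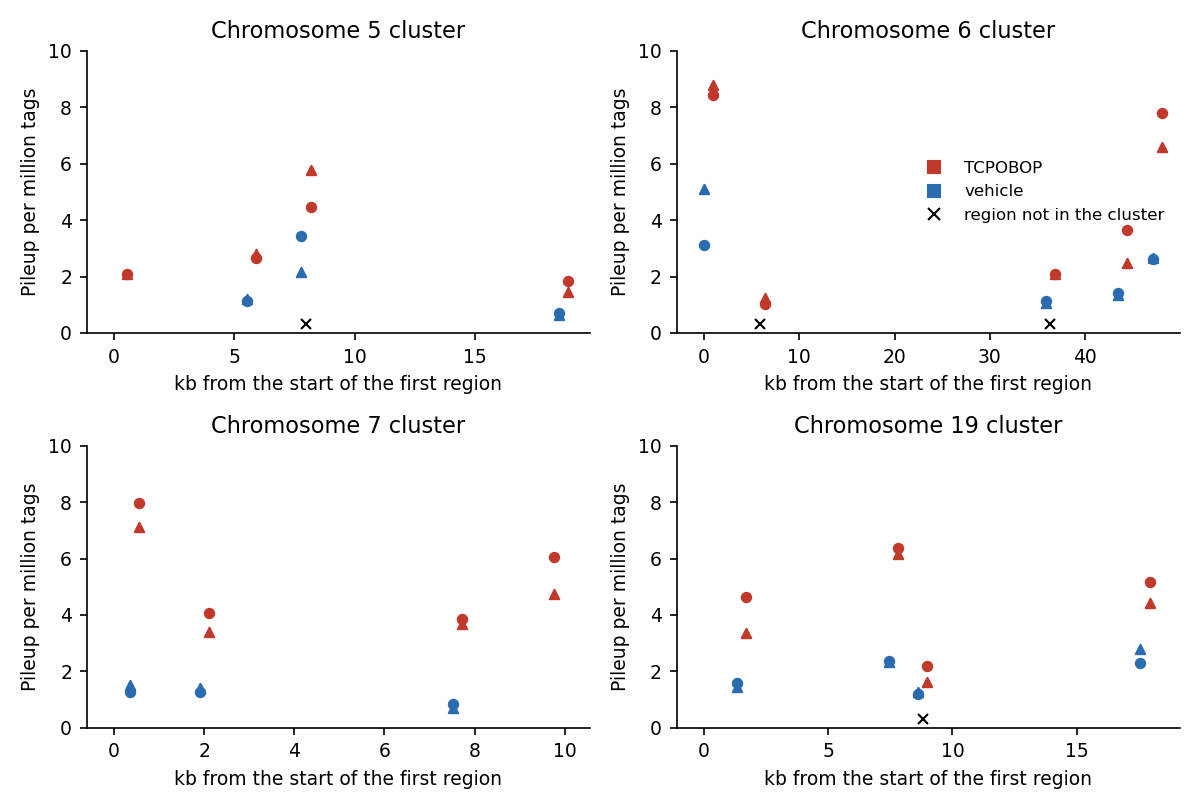
Scaled pileup (per 1000000 tags) of each pool against distance in kb from the start of the first region of the 4 clusters, TCPOBOP red and vehicle blue, circles pool 1 and triangles pool 2. A region with red points alone has no vehicle peak; a cross marks a region that lies inside the interval but belongs to no cluster. TCPOBOP points are above vehicle points at every region with both, and all 4 regions of the chromosome 7 cluster had scaled pileups of 3.40 to 7.96 after TCPOBOP.

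Presence of a peak was compared next, to find sites seen in only 1 treatment. Of 28102 regions with a peak in both TCPOBOP pools, 1980 had none in either vehicle pool (7.05%, exact Clopper-Pearson 95% CI 6.75 to 7.35), and are called gained. Of 23685 regions with a peak in both vehicle pools, 189 had none in either TCPOBOP pool (0.798%, CI 0.689 to 0.920), and are called lost. These intervals cover counting error only. With 1 pool left out, which counts peaks of a single list, 3338 to 6878 regions were gained and 337 to 1265 lost.

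The counts moved with the length of the lists. The most frequent pattern after peaks in all 4 pools was a peak in TCPOBOP pool 1 alone, at 4898 regions, and TCPOBOP pool 2 alone had 1358. Vehicle pools 1 and 2 alone had 1076 and 703. When each list was reduced to its 29216 peaks of highest −log10 q, the length of the shortest list, 834 regions were gained and 682 lost. Tags were not subsampled, and the part of depth in these counts was not tested.

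**Figure D4:**
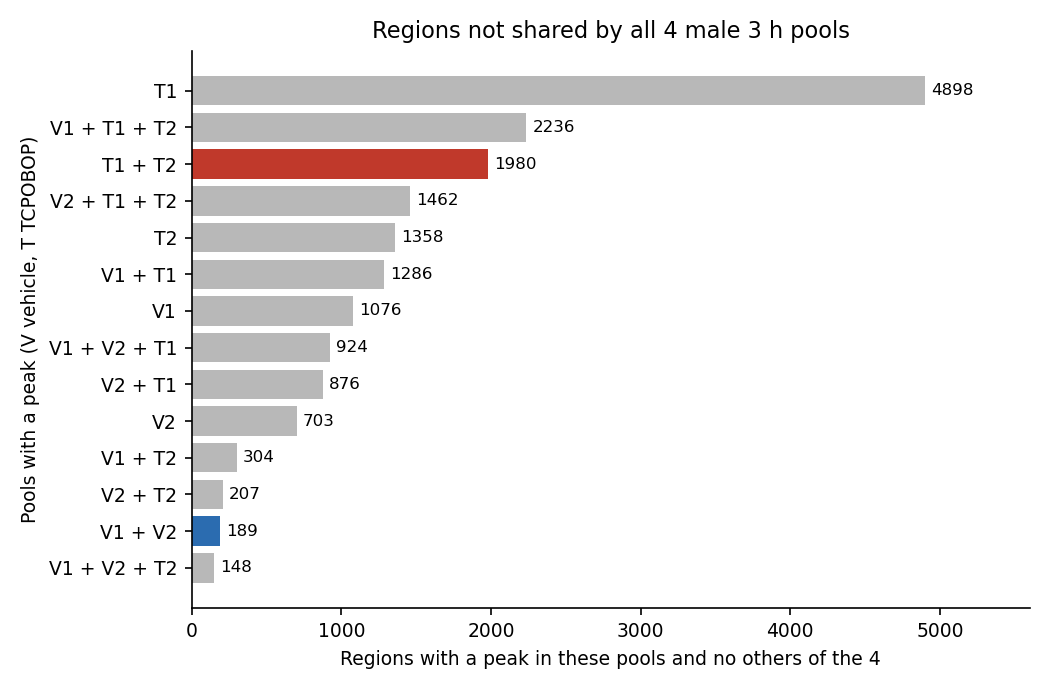
Number of regions with a peak in exactly the pools named on the vertical axis (V1 and V2, vehicle pools; T1 and T2, TCPOBOP pools). The 22424 regions with a peak in all 4 are left out. Gained regions (red) number 1980 and lost regions (blue) 189, while TCPOBOP pool 1 alone has 4898.

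Most gained peaks were weak. Their median scaled pileup was 0.867 in the TCPOBOP pools, against 2.27 in the same pools at regions shared by all 4, and their median fold enrichment 4.49 against 7.53. Lost peaks were as weak, with a median of 0.879 in the vehicle pools against 2.01 at shared regions. A missing peak does not mean no signal, since a site under the calling threshold is not listed: the lowest scaled pileup of any listed peak was 0.510 in vehicle pool 1 and 0.465 in vehicle pool 2. The median gained region lay 9.05 kb from the nearest vehicle peak, and 700 of 1980 (35.4%) lay within 5 kb of one.

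Vehicle pools of the other experiments listed many of the gained sites. Of the 1980 gained regions, 1379 (69.6%) had a peak in both vehicle pools of the males at 27 h and 273 (13.8%) in neither. In the vehicle pools of females at 3 h 452 (22.8%) had a peak in both, and in those of females at 27 h 720 (36.4%). Other regions gave shares close to these. Of the 189 lost regions, 122 (64.6%), 35 (18.5%) and 56 (29.6%) had a peak in both vehicle pools of males at 27 h, females at 3 h and females at 27 h. Of all 4842 regions with a peak in exactly 2 of the male 3 h pools, gained and lost ones included, the shares were 68.8%, 21.5% and 34.4%. The vehicle pools of males at 27 h were the deepest, with 35822318 and 43618254 tags against 16216180 to 28624325 in the female vehicle pools, and they differ from these also in sex and experiment.

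A stricter class held the peaks that ranked among the 20000 of highest −log10 q in both pools of a treatment while the whole lists of the other treatment had none. There were 61 such strong gained regions, 0.367% (CI 0.281 to 0.471) of the 16619 regions so ranked in both TCPOBOP pools. Strong lost regions numbered 5, or 0.0309% (CI 0.0100 to 0.0721) of 16191. These 2 intervals also cover counting error only. Among the 10000 highest peaks the counts were 4 and 1. With 1 pool left out they were 188 to 322 gained and 19 to 91 lost. The strong gained regions had a median scaled pileup of 1.68 and a median fold of 7.56.

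The 6 strong gained regions of best rank, G1 to G6, included neighbours of the higher regions. G1 (chromosome 10, 80420505 to 80421154) had the highest scaled pileup of any gained region, 8.98 in TCPOBOP pool 1 and 7.28 in pool 2 (mean 8.13 ± 1.20, SD, n = 2 pools), and lies next to H5. G2 (chromosome 7, 26681892 to 26682863), the last region of the chromosome 7 cluster, had 6.07 and 4.75. With no peak listed in either vehicle pool, these 2 sites held the clearest peaks seen after TCPOBOP alone in males at 3 h.

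G3 (chromosome 4, 117004869 to 117005675) had 2.60 and 2.37, and G4 (chromosome 18, 51620914 to 51622185) had 4.29 and 2.37. G5 (chromosome 4, 25298813 to 25299549) had 2.32 and 1.78, and G6 (chromosome 5, 30912400 to 30913093), the first region of the chromosome 5 cluster, had 2.09 and 2.1. TCPOBOP pool 1 was clearly the higher at G4, while at G6 the pools were equal. All 6 exceeded the lowest pileup listed anywhere in the vehicle pools at least 3-fold in both TCPOBOP pools. Peaks are called against a local background, so the level needed for listing at these sites can be higher and is not known.

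The same sites were followed in other experiments. At G1 the females at 3 h had no vehicle peak and 11.7 and 8.57 after TCPOBOP. In males at 27 h G1 had 1.53 and 1.93 in vehicle and 8.77 and 13.0 after TCPOBOP. At G5 peaks were listed in both TCPOBOP pools of all 4 experiments and in 1 of the 8 vehicle pools of the series. G4 differed: in females at 3 h it had a peak in TCPOBOP pool 2 alone, at 0.852, while in males at 27 h it had none in vehicle and 4.99 and 6.08 after TCPOBOP. Of the 61 strong gained regions, 47 (77.0%) had a peak in both TCPOBOP pools of females at 3 h and 17 (27.9%) in both vehicle pools there. In males at 27 h these numbers were 54 (88.5%) and 35 (57.4%), and in females at 27 h 48 (78.7%) and 15 (24.6%). Shares were also taken over the 40071 regions with a peak in any male 3 h pool. They were 64.4% for both TCPOBOP pools and 59.6% for both vehicle pools of the female 3 h experiment. The 27 h shares were 79.0% and 81.9% for males and 71.3% and 63.1% for females. Over the 4842 regions with a peak in exactly 2 male 3 h pools, the female 3 h shares were 32.9% and 21.5%. Their 27 h shares were 62.9% and 68.8% (males) and 50.1% and 34.4% (females).

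Of the strong lost regions, the one of best rank, S1 (chromosome 6, 86476084 to 86477667), coincides with a peak number absent from the lists. Its scaled pileup was 4.46 and 5.4 in the vehicle pools, with no peak listed in either TCPOBOP pool. Peaks are numbered along the chromosome in each list, and in both TCPOBOP lists the number between the peaks that flank S1 is absent. Over the series S1 had a peak in 10 lists, at 4.46 to 13.4, and in all 6 lists without one a number is absent there. Each of those lists thus lacks 1 called peak between the flanking peaks, and S1 is not read as a loss after TCPOBOP. The other 4 strong lost regions and 60 of the 61 strong gained regions had no absent number in the lists without a peak, and 1927 of the 1980 gained and 184 of the 189 lost regions had none either. S2 (chromosome 16, 6776449 to 6777134) had 1.15 and 0.988 in vehicle and S3 (chromosome 9, 21991512 to 21991776) 1.53 and 1.16.

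Whether the sites that rose in males at 3 h also changed in the other experiments was asked of the 129 higher regions. The experiments share no pools, but sex and time go with the experiment and cannot be told apart from it. The spread of each region was estimated once over all 16 libraries and serves every experiment. A region of small spread is therefore more readily called in each, and the shares called are not independent between experiments. In females at 3 h, 121 of the regions could be tested. There 111 had the same sign (91.7%; 50.9% of all regions tested there were positive) and 64 were called higher, where 272 of 22398 (1.21%) were called higher overall. The median change was log2 0.83 in females and 0.99 in males at those 121 regions.

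In males at 27 h, 121 of 128 regions tested were positive (94.5%; 49.1% of all regions tested there) and 75 were called higher (58.6%; overall 561 of 31224, 1.80%), with a median of log2 0.83. In females at 27 h, 101 of 114 were positive (88.6%; 45.5% of all) and 67 were called (58.8%; overall 980 of 24993, 3.92%), with a median of log2 0.74. Across the 111 regions that could be tested in every experiment, 39 were called higher in all 4 and 29 in males at 3 h alone. Since the 129 regions were chosen by their change in males at 3 h, the sizes there and elsewhere are set side by side without a test.

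At H1 to H12 most changes recurred. H1 rose by log2 3.12 ± 0.18 in females at 3 h (adjusted p = 1.65e-11), 2.18 ± 0.18 in males at 27 h (adjusted p = 3.76e-09) and 2.85 ± 0.18 in females at 27 h (adjusted p = 3.29e-11). H3 rose by log2 2.32 ± 0.21, 2.84 ± 0.21 and 3.01 ± 0.21 in the same order. H12 rose by log2 0.60 ± 0.15, 0.61 ± 0.14 and 0.58 ± 0.15. H8 was called in females at 3 h (log2 1.13 ± 0.17) and males at 27 h (log2 0.68 ± 0.17), and in females at 27 h its change was log2 0.20 ± 0.17 (adjusted p = 0.573). H9 was not called in males at 27 h (log2 0.62 ± 0.19, adjusted p = 0.0946). The remaining 7 of the 12 were called in all 3 other experiments, as were H1, H3 and H12.

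**Figure D5:**
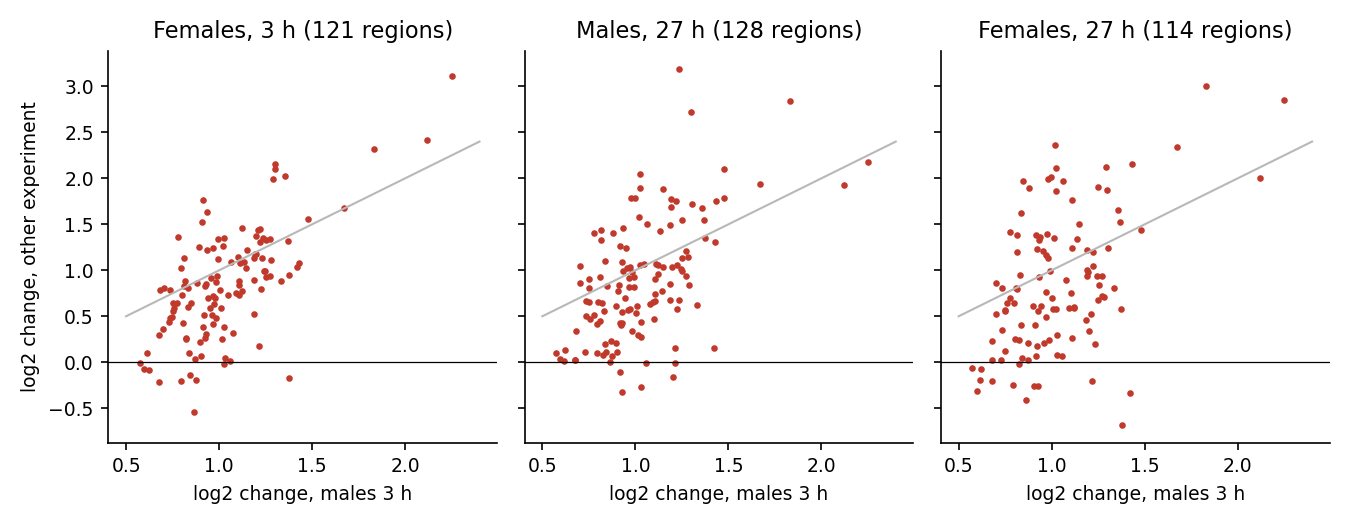
The log2 change of the regions called higher in males at 3 h (horizontal axis) against their log2 change in females at 3 h, males at 27 h and females at 27 h (vertical axis), 1 point per region. The grey line marks equal change. 121, 128 and 114 regions could be tested, and 111, 121 and 101 of them lie above 0.

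The 24 lower regions gave another picture. In females at 3 h, 8 of 22 tested had the same sign (36.4%, where 49.1% of all regions tested there were negative) and 0 were called lower, with 0.0536% called lower overall. The median change there was log2 0.05. In males at 27 h and females at 27 h 19 of 23 were negative in each (82.6%, where 50.9% and 54.5% of all tested regions were negative), with medians of log2 −0.12 and −0.13, and 0 were called (0.410% and 2.68% called lower overall).

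A direct test of the difference between experiments called 1 region against females at 3 h (0.00510% of 19621 tested) and 1 against males at 27 h (0.00457% of 21861 tested). At an unadjusted p below 0.05 there were 2017 and 1643. The first was L1. In females at 3 h its scaled pileup was 2.12 and 2.41 in vehicle and 3.09 and 3.81 after TCPOBOP, so that the pools moved opposite to those of males. Its difference, males minus females, was log2 −1.76 ± 0.27 (limma adjusted p = 0.0149), and was not called without TCPOBOP pool 2 (adjusted p = 0.129) or without centring (adjusted p = 0.152). The L1 difference was also not called without a mean trend in the limma prior (adjusted p = 0.0876). In vehicle, the females lay at the level that males had after TCPOBOP.

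The second was at chromosome 5, 129084925 to 129086402, a region called higher in males at 3 h. Its scaled pileup was 0.893 and 1.05 in vehicle and 3.27 and 2.05 after TCPOBOP at 3 h (log2 1.23 ± 0.22, adjusted p = 0.00702), a call lost without TCPOBOP pool 1 (adjusted p = 0.219) or vehicle pool 1 (adjusted p = 0.0637). At 27 h it was 0.614 and 0.734 in vehicle and 6.18 and 7.21 after TCPOBOP (log2 3.19 ± 0.22). The difference, 3 h minus 27 h, was log2 −1.96 ± 0.32 (adjusted p = 0.0473). This difference was not called without a mean trend in the limma prior (adjusted p = 0.0629) or with pools of equal number paired (adjusted p = 0.140). It was not called without TCPOBOP pool 2 (adjusted p = 0.124), without vehicle pool 2 (adjusted p = 0.0735) or without centring (adjusted p = 0.0792). Of the 129 higher regions, 0 of 121 differed from females at 3 h and 1 of 128 from males at 27 h by this test, which with 2 pools per group does not show that the others changed alike. At H1, for example, males minus females at 3 h was log2 −0.86 ± 0.25 (adjusted p = 0.257).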

How the data were processed

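DNase-seq peak lists of 16 pools were used, 1 list per pool. Per the labels' protocols, DNase I fragments of 125 to 400 bp were selected. Per the submitters' processing notes, reads were aligned to mm9 with Bowtie, version not given in the sources used here. Per the file headers, MACS 2.1.0.20150731 called peaks in each pool alone at a q-value of 0.05, with no control, all duplicates kept, tags shifted by 100 bp and extended to 200 bp. The deposited pileup is a signal that the authors did not scale to depth. The authors' fold enrichment divides the pileup by a local background, and ranks use the deposited −log10 q. In the male 3 h lists 476 to 524 peak numbers are absent, for a reason not given in the sources used here.

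Peaks overlapping by 1 bp or more were merged over all lists, autosomes only. The highest pileup per region was scaled to 1000000 header tags, log2 transformed and centred on the median of regions with a peak in all 16 lists. limma 3.58.1 (R 4.3.3, trended prior) was fitted to all 16 libraries, with a treatment effect per experiment, over regions with a peak in all 4 pools of the experiments compared. In simulated data 70% and 76% of changes of log2 1 and −1 were recovered, 100% of 2 and −2, and 5 of 22224 unchanged regions were called. The simulation kept the real pattern of listed peaks. A fall that takes a peak under the listing level was not simulated, so recovery of falls holds only for regions that stay listed. Other steps used Python 3.11.15 with numpy 2.4.6, pandas 2.3.3 and scipy 1.17.1.

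Named regions were the 12 higher and 5 lower regions of lowest p, the 6 strong gained and 3 strong lost regions of best rank, all regions of clusters (at least 3 within 50 kb of the next) and the 2 nearest the threshold on either side. The members, rules and lists were chosen with earlier results of these data known. The absent peak numbers were examined after the data were seen. No genome or annotation of mm9 was used, so gene lists, cell type markers and sequences were not examined. 1 list of females at 27 h carries another experiment's code in its heading and was used by its command line and peak names.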

Additional observations from a re-analysis of the deposited data

Results flagged for a closer look

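The change differed between experiments by the direct limma test at 2 regions. At chromosome 17, 16997376 to 16998452, the difference in log2 change, males at 3 h minus females at 3 h, was −1.76 (adjusted p = 0.0149), from a change of −1.13 in males and 0.63 in females. The female change alone did not pass its test (adjusted p = 0.118). At chromosome 5, 129084925 to 129086402, the difference, males at 3 h minus males at 27 h, was −1.96 (adjusted p = 0.0473), from changes of 1.23 and 3.19. Sex and time cannot be told apart from the experiment. Groups of 2 pools are too small for a check of single outlying pools.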

How the results depend on the processing

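Against 129 higher and 24 lower regions, the counts were 291 and 2 without centring, 19 and 0 from the 4 libraries alone, 50 and 6 without a mean trend, 75 and 20 with summed pileups, and 142 and 37 over regions with a peak in all 16 lists. With a replicate block pairing pools of equal number they were 105 and 13. The labels do not pair the pools, and the deviations of equal numbers correlated at −0.03 across regions, so this fit is shown for completeness. Leaving out 1 pool gave 14 to 142 higher and 2 to 12 lower. Gained and lost regions were 834 and 682 at equal list length, lost regions 123 at a −log10 q of 5 or more, and 3338 to 6878 gained and 337 to 1265 lost with 1 pool left out. Strong gained and lost regions were 4 and 1 among 10000 peaks, and 188 to 322 and 19 to 91 with 1 pool left out. Without regions that have an absent peak number, an alternative chosen after seeing the data, the counts were 1927 gained, 184 lost, 60 strong gained and 4 strong lost. Regions that differed from females at 3 h (1) numbered 0 without centring and 0 without a mean trend, 1 with the replicate block, and 0 to 8 with 1 pool left out. Those that differed from males at 27 h (1) numbered 0 in each of the first 2 settings, 0 with the replicate block, and 0 to 5 with 1 pool left out. The 24 tested regions named by p or cluster kept their call in 250 of 310 recomputations; their direction could not turn in most of these, where the estimate stayed the same number or the pools did not overlap. Except where the alternative itself uses fewer pools or regions, the cause was not tested. The libraries held 15679689 to 25383943 tags, and the lowest listed summits 8 to 10 tags; the effect of depth on the calls was not tested.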
